A study of Homo sapiens with 10 samples.

Results

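The genes described here serve the lysosome, the acid compartment in which cells break down proteins, glycans and lipids, and autophagy, which delivers cytoplasm to it. They were chosen by name from a list of 42 symbols covering lysosomal enzymes, lysosomal cofactors and membrane proteins, transcription factors of the MiT/TFE family and autophagy proteins. Of these, 41 had a row of that name in both tables, out of 23416 gene names kept for the siRNA libraries and 23426 for those with miRNA. The remaining symbol, CTSL (cathepsin L), stands under its older name CTSL1, and its values are given apart from the counts. The cells were of the established line SH-SY5Y, from a human neuroblastoma, kept in serum-containing DMEM/F12. In all groups they were treated with a small RNA and harvested after 72 h. An siRNA against the primate long non-coding RNA LncND was given at 100 nM (3 libraries) and set against a scrambled siRNA (3 libraries). A mimic of the microRNA miR-143-3p was given at 50 nM (2 libraries) and set against a scrambled miRNA (2 libraries). The doses of the scrambled RNAs are not given separately in the labels. The siRNA and the mimic thus differ in dose as well as in agent, and each was compared with its own scrambled control, with no library in common.

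Lysosomal hydrolases are made in the endoplasmic reticulum, tagged with mannose 6-phosphate in the Golgi and released in the acid lumen, where cofactors present their lipid substrates and membrane proteins such as LAMP1 and LAMP2 hold the compartment together. In autophagy, the ULK1 kinase and a lipid kinase complex with BECN1 start a double membrane, ATG7 and ATG5 help attach proteins of the ATG8 family (LC3 and GABARAP) to it, and adaptors such as SQSTM1 bind cargo. TFEB and TFE3 are transcription factors that enter the nucleus when the growth kinase mTORC1 is inactive and bind E-box elements in many lysosomal and autophagy genes. Neurons depend on this system, and many of the enzymes are known from inherited storage disorders of the brain.

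Poly(A) RNA was sequenced and is given as FPKM, a level per transcript length and sequencing depth, in 2 tables scaled separately. Estimated depth was 25.5 to 44.4 M fragments in the siRNA libraries and 13.9 to 37.5 M in the miRNA libraries. LncND siRNA replicate 1 stood slightly apart, with the Y RNA gene RNY4 at 1224670 FPKM and correlations of 0.988 and 0.989 with the other LncND siRNA libraries, so the overall counts are also given without it. The level of LncND was not analysed here. Of 8 noradrenergic neuroblastoma markers 7 were at 1 FPKM or more in every group (TH was the exception). Summed over the 8, the level was 1262 to 1314 FPKM with scrambled siRNA and 1401 to 1466 with LncND siRNA. It was 2329 to 2340 with scrambled miRNA and 2239 to 2262 with the mimic. The log2 changes of the 7 tested ran from -0.86 to 0.49 with LncND siRNA and from -0.87 to 1.85 with the mimic. None of 8 macrophage and blood markers reached 1 FPKM in any group, and their summed level was 0.518 to 0.879 FPKM in all libraries. Among Schwann and glial markers S100B alone reached 1 FPKM. The summed level of the 6 glial markers was 6.31 to 6.67 FPKM with LncND siRNA against 3.49 to 3.65 in its control, and 3.38 to 3.40 with the mimic against 4.23 to 5.03. Of 4 epithelial markers 1, EPCAM, reached 1 FPKM with LncND siRNA, where their sum was 1.65 to 1.90 FPKM against 0.608 to 0.809 in its control. The part of such cells in the results was not tested. Bulk RNA cannot tell a change in the number of cells of a kind from a change in RNA per cell. Whether replicates came from separate cultures is not in the labels, so the p-values may reflect technical spread between libraries alone.

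With the siRNA against LncND most of these genes rose. Of 40 tested (mean of at least 1 FPKM), 29 rose (72.5%), 7 fell and 4 did not pass the limma test (adjusted p under 0.05). Among all 12601 genes tested 66.9% passed, 36.6% upwards and 30.3% downwards. The median log2 fold change was 0.34 for the lysosome and autophagy genes and 0.02 for all genes. In 36 of the 40 the treated and control libraries did not overlap, against 70.9% of all genes. A change of at least 1.5-fold that passed the test was seen in 9 (8 up, CTSC down), against 12.3% of all genes. Without LncND siRNA replicate 1 the counts were 30 up and 7 down. CTSZ, a cysteine protease, was not tested, since its group means were 0.0547 to 0.0975 FPKM. Changes are given below as differences of log2(FPKM + 1), followed in places by ± SE, and group levels as mean FPKM ± SD (n = 3 in the siRNA groups, n = 2 in the miRNA groups).

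**Figure D1:**
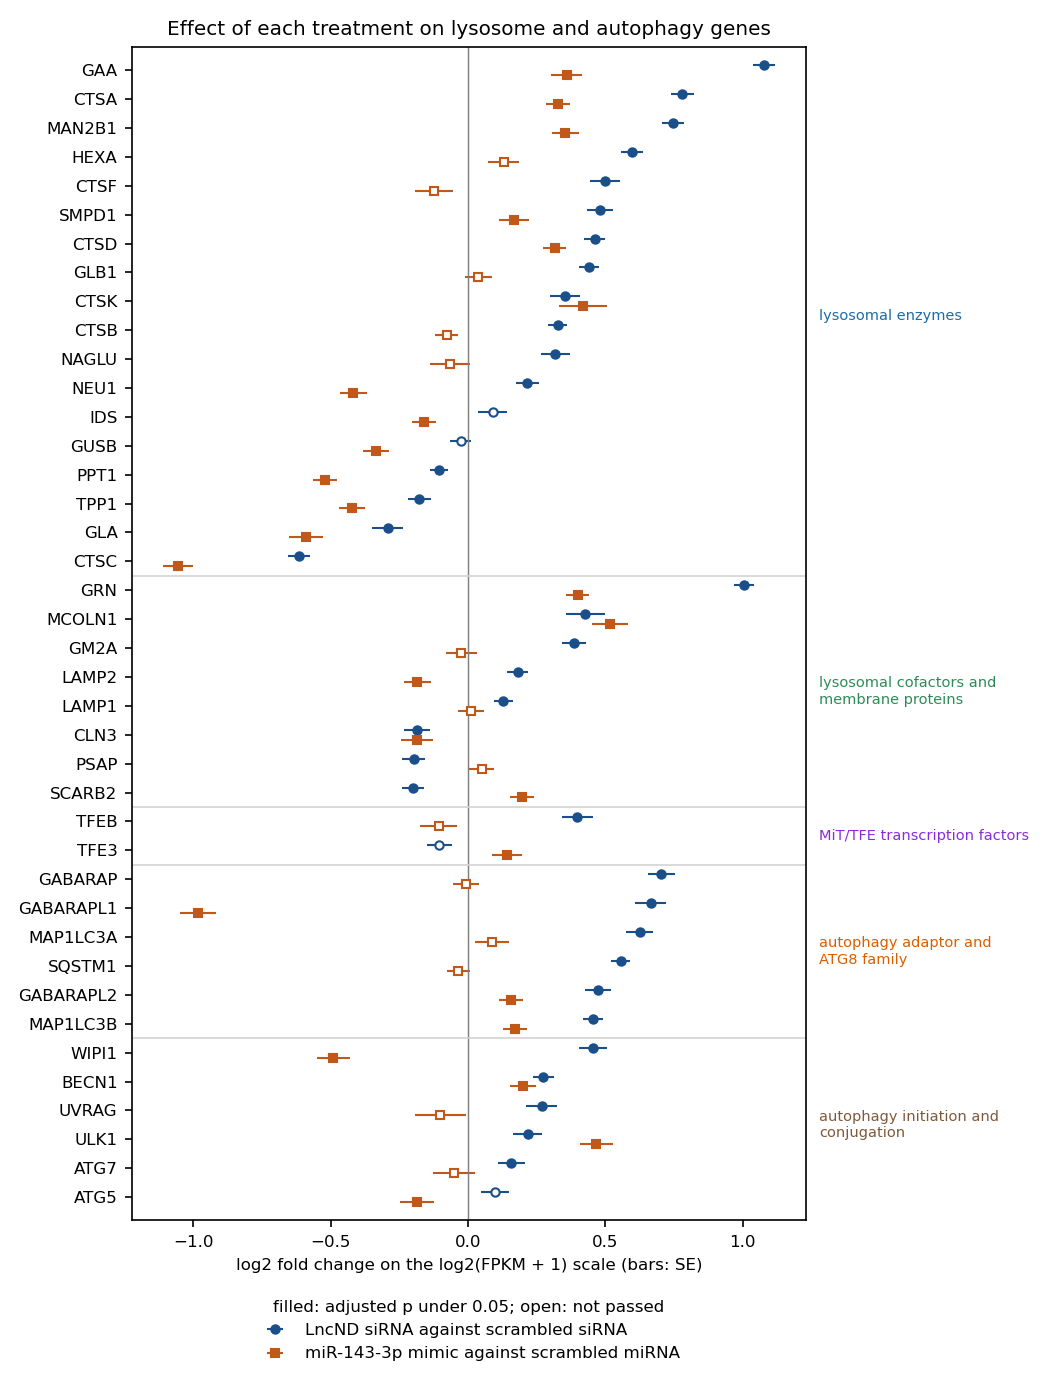
Log2 fold change (horizontal axis, log2(FPKM + 1) scale) of each of the 40 tested genes, grouped by role, with LncND siRNA (circles) and with the miR-143-3p mimic (squares), each against its own scrambled control. Bars are SE and filled symbols passed the limma test. With LncND siRNA all 6 genes of the adaptor and ATG8 group stand to the right of 0, while with the mimic the symbols spread to both sides, from -1.06 (CTSC) to 0.52 (MCOLN1).

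Among the 18 lysosomal enzymes tested, 12 rose (66.7%), 4 fell (22.2%) and 2 did not pass with LncND siRNA, against 36.6% up and 30.3% down of all genes. The largest rise was that of GAA (hg19 chr17:78075354-78093679), the acid alpha-glucosidase that breaks down glycogen. It stood at 26.4, 28.0 and 27.5 FPKM in the scrambled siRNA libraries and at 56.6, 60.2 and 59.7 FPKM with LncND siRNA. Every treated library was above every control, by 2.15-fold in the mean (1.08 ± 0.040, limma adjusted p = 2.22e-08). CTSA (hg19 chr20:44519590-44527458), a carboxypeptidase that also protects the glycosidases GLB1 and NEU1, was at 19.4, 20.8 and 20.8 FPKM against 34.7, 35.9 and 36.3. The groups did not overlap, and the log2 change was 0.78 ± 0.040, limma adjusted p = 1.53e-07. The alpha-mannosidase MAN2B1 (hg19 chr19:12757321-12777591) went from 14.4, 15.2 and 14.9 to 24.6, 26.5 and 25.6 FPKM, again without overlap (0.75 ± 0.041, limma adjusted p = 2.12e-07). HEXA, the alpha subunit of the hexosaminidase that trims GM2 ganglioside, rose from 17.3 ± 0.590 to 26.6 ± 0.621 FPKM (0.60).

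Smaller rises were seen in the acid sphingomyelinase SMPD1 (0.48), the beta-galactosidase GLB1 (0.44), the heparan sulfate glycosidase NAGLU (0.32) and the sialidase NEU1 (0.22). The proteases moved together in part: the aspartic protease CTSD rose from 51.7 ± 1.84 to 71.6 ± 0.765 FPKM (0.46), and the cysteine proteases CTSF (0.50), CTSK (0.35) and CTSB (0.33) rose as well. CTSL1, counted apart, went from 20.6 ± 0.747 to 27.7 ± 0.612 FPKM (0.41 ± 0.039, limma adjusted p = 7.76e-06). CTSC (hg19 chr11:88026759-88070941), the dipeptidyl peptidase that activates serine proteases of immune granules, went the other way. It was at 32.7, 33.8 and 34.8 FPKM in the controls and at 22.6, 21.1 and 21.3 with LncND siRNA, a fall without overlap between the groups (-0.62 ± 0.041, limma adjusted p = 6.63e-07). The other falls were small. They were those of the alpha-galactosidase GLA (-0.29), the tripeptidyl peptidase TPP1 (-0.18) and the palmitoyl-protein thioesterase PPT1 (-0.11). PPT1 did not pass without scrambled siRNA replicate 3 (-0.10, adjusted p = 0.0642), nor when LncND siRNA replicate 2 was left out (-0.10, adjusted p = 0.0669), and its limma adjusted p ranged from 0.00235 to 0.0669 over all alternatives. The iduronate sulfatase IDS (0.09) and the beta-glucuronidase GUSB (-0.027) did not pass. IDS passed without LncND siRNA replicate 1 (0.15, adjusted p = 0.00452, limma, range 0.00452 to 0.503).

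Of the 8 lysosomal cofactors and membrane proteins, 5 rose (62.5%) and 3 fell (37.5%) with LncND siRNA, against 36.6% and 30.3% of all genes. GRN (hg19 chr17:42422490-42430470) encodes progranulin, which is carried to lysosomes and split there into granulins. It stood at 36.8, 38.3 and 37.1 FPKM in the controls and at 74.6, 76.4 and 77.1 with LncND siRNA. The treated libraries were all above the controls, by 2.03-fold in the mean (1.00 ± 0.035, limma adjusted p = 1.75e-08). MCOLN1 (hg19 chr19:7587495-7598895), the lysosomal calcium channel TRPML1, was at 9.18, 10.5 and 9.06 FPKM against 13.2, 14.6 and 12.03. These groups did not overlap either (0.43 ± 0.071, limma adjusted p = 0.000426), and GM2A, the activator that presents GM2 ganglioside to HEXA, rose as well (0.39). The membrane glycoproteins LAMP2 (0.18) and LAMP1 (0.13) rose by little. The 3 falls were of similar size. SCARB2 (hg19 chr4:77079891-77135052), which carries the enzyme glucocerebrosidase to the lysosome, went from 79.3, 77.6 and 77.4 to 65.0, 69.0 and 69.7 FPKM without overlap (-0.20 ± 0.039, limma adjusted p = 0.00122). Prosaposin, PSAP, the precursor of the saposin lipid activators, fell from 191 ± 3.81 to 167 ± 4.80 FPKM (-0.20), and the membrane protein CLN3 fell by 0.19 on the log2 scale. The rise of LAMP1 did not pass under quantile normalization (0.071, adjusted p = 0.0624, limma, range 0.00509 to 0.0624).

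Of the transcription factors, TFEB rose with LncND siRNA and TFE3 did not pass. TFEB (hg19 chr6:41651715-41703997), which had the lowest FPKM of the 40 genes in the scrambled siRNA group, was at 2.63, 3.04 and 2.76 FPKM in the controls and at 4.25, 3.82 and 3.98 with LncND siRNA. The groups did not overlap (0.40 ± 0.058, limma adjusted p = 0.000165). TFE3 was at 10.1, 11.1 and 10.6 against 9.73, 10.1 and 9.51 FPKM, with overlap, and did not pass (-0.10 ± 0.045, limma adjusted p = 0.062). It passed downwards under median-ratio scaling (-0.12, adjusted p = 0.0303), under quantile normalization (-0.11, adjusted p = 0.0413) and without scrambled siRNA replicate 1 (-0.14, adjusted p = 0.0369, limma, range 0.0303 to 0.207). Gene expression says nothing on where these proteins were in the cell.

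All 6 genes of the adaptor and ATG8 group rose with LncND siRNA, against 36.6% of all genes tested. Their median log2 change was 0.59, against 0.02 for all genes. GABARAP (hg19 chr17:7143737-7145753), the most abundant of the 40 genes in every group, was at 275, 281 and 287 FPKM in the controls and at 483, 443 and 449.9 with LncND siRNA. Controls and treated libraries stood well apart (0.70 ± 0.050, limma adjusted p = 1.14e-06). Its close relative GABARAPL1 (hg19 chr12:10365488-10375724) went from 3.55, 3.53 and 4.05 to 6.76, 6.46 and 6.19 FPKM, also without overlap (0.66 ± 0.056, limma adjusted p = 3.64e-06). MAP1LC3A (0.62), GABARAPL2 (0.47) and MAP1LC3B (0.45), the further ATG8 proteins listed, rose by less than GABARAPL1. The cargo adaptor SQSTM1 (hg19 chr5:179233387-179265077) was at 36.6, 36.2 and 38.2 FPKM against 55.6, 54.2 and 54.6. It too was higher in every treated library (0.56 ± 0.036, limma adjusted p = 5.95e-07). The near-identical copy MAP1LC3B2 stood at 2.70 to 4.10 FPKM, so the share of reads between it and MAP1LC3B is uncertain, while GABARAPL3, the copy of GABARAPL1, was at most at 0.0693 FPKM.

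Of 6 genes for autophagy initiation and conjugation, 5 rose with LncND siRNA (83.3%, against 36.6% of all genes). ATG5, part of the conjugation enzyme for ATG8 proteins, did not pass (0.10). WIPI1 (hg19 chr17:66417421-66453653), which binds the phosphoinositide of the growing membrane, was at 5.59, 5.22 and 4.98 FPKM in the controls and at 7.22, 7.84 and 7.70 with LncND siRNA. The groups did not overlap (0.46 ± 0.051, limma adjusted p = 2.64e-05). BECN1 and UVRAG, subunits of the lipid kinase complex, rose by 0.27 each. The kinase ULK1 (0.22) and the activating enzyme ATG7 (0.16) rose by less. ATG7 lost its call without scrambled siRNA replicate 3 (0.14, adjusted p = 0.0607), when LncND siRNA replicate 2 was left out (0.14, adjusted p = 0.0588) and under quantile normalization (0.047, adjusted p = 0.408, limma, range 0.00751 to 0.408).

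With the miR-143-3p mimic the same 40 genes split. Of them 14 rose (35.0%), 12 fell (30%) and 14 did not pass, while of all 12558 genes tested 63.3% passed, 24.6% upwards and 38.6% downwards. The split depends on the scaling: with median-ratio scaling 16 rose and 8 fell, and with quantile normalization 20 rose and 8 fell. Over all genes called, the share upwards moved from 38.9% to 48.9% and 51.8% under these scalings. The median log2 change of the 40 genes was -0.016, against -0.062 for all genes. The sign of the former turned with the scaling, to 0.050 under median-ratio scaling and 0.089 under quantile normalization, where the medians of all genes were -0.00055 and 0.015. Libraries did not overlap for 31 of 40, against 81.9% of all genes with 2 libraries per group. A change of at least 1.5-fold that passed the test was seen in 3 (CTSC, GABARAPL1 and GLA, all down), against 13.1% of all genes. Levels within both miRNA groups rest on 2 libraries each, of which mimic replicate 2 and scrambled miRNA replicate 1 were the shallowest of all 10.

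Among the enzymes 6 rose (33.3%), 7 fell (38.9%) and 5 did not pass with the mimic. Of all genes 24.6% rose and 38.6% fell, so the share of falls was near that of all genes. CTSC was at 33.4 and 34.1 FPKM with the scrambled miRNA and at 15.0 and 16.5 with the mimic. Both mimic libraries were below both controls, and the level fell by 53.4% (-1.06 ± 0.054, limma adjusted p = 3.58e-07). GLA went from 15.4 and 14.7 to 9.22 and 10.1 FPKM, without overlap (-0.59 ± 0.061, limma adjusted p = 2.56e-05). PPT1 was at 48.1 and 50.0 FPKM in the controls against 33.8 and 34.0 (-0.52 ± 0.044, limma adjusted p = 7.45e-06), and TPP1 at 22.1 and 21.7 against 16.0 and 16.2 (-0.42 ± 0.047, limma adjusted p = 4.44e-05). In neither gene did the groups overlap. NEU1 fell from 16.6 and 16.4 to 12.2 and 12.1 FPKM, likewise without overlap (-0.42 ± 0.050, limma adjusted p = 6.81e-05). GUSB (-0.33) and IDS (-0.16) fell by less. GUSB has transcribed pseudogenes, of which GUSBP1 was at 15.0 to 23.4 FPKM, so its own level is uncertain.

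The rises among the enzymes were smaller than the larger falls. CTSK rose from 3.73 ± 0.235 to 5.34 ± 0.684 FPKM (0.42). GAA was at 30.2 and 27.3 FPKM in the controls and at 38.0 and 36.3 with the mimic, without overlap (0.36 ± 0.056, limma adjusted p = 0.000355). MAN2B1 (0.35), CTSA (0.33), CTSD (0.32) and SMPD1 (0.17) rose as well. CTSB (-0.077), CTSF (-0.12), NAGLU (-0.066), GLB1 (0.038) and HEXA (0.13) did not pass. CTSL1, counted apart, fell from 30.2 ± 1.04 to 26.1 ± 1.41 FPKM (-0.20 ± 0.053, limma adjusted p = 0.00713). With 2 libraries a group, several of these calls turn on 1 library. Without scrambled miRNA replicate 2, IDS (-0.13, adjusted p = 0.0864, limma, range 0.00553 to 0.301) and SMPD1 (0.16, adjusted p = 0.102) did not pass. SMPD1 also failed without mimic replicate 1 (0.14, adjusted p = 0.106) and without scrambled miRNA replicate 1 (0.17, adjusted p = 0.0806, limma, range 0.00446 to 0.106). Without scrambled miRNA replicate 1, CTSF passed downwards (-0.21, adjusted p = 0.0340, limma, range 0.034 to 0.766) and CTSL1 did not pass (-0.17, adjusted p = 0.0520, limma, range 0.00242 to 0.0922). HEXA passed upwards without mimic replicate 2 (0.20, adjusted p = 0.0136, limma, range 0.0136 to 0.382), under median-ratio scaling and under quantile normalization. Scaling changed further calls: IDS failed under median-ratio scaling (-0.093, adjusted p = 0.0782) and quantile normalization (-0.056, adjusted p = 0.301), and GLB1 passed upwards under quantile normalization (0.13, adjusted p = 0.0408, limma, range 0.0408 to 0.997).

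Of the cofactors and membrane proteins 3 rose (37.5%), 2 fell (25%) and 3 did not pass with the mimic, against 24.6% up and 38.6% down of all genes. MCOLN1 was at 8.31 and 8.23 FPKM in the controls and at 11.5 and 13.0 with the mimic. This was the largest rise among the 40 genes with the mimic, and the groups did not overlap (0.52 ± 0.066, limma adjusted p = 9.96e-05). GRN was at 48.0 and 48.8 FPKM against 65.2 and 63.0 (0.40 ± 0.043, limma adjusted p = 3.25e-05), and SCARB2 at 79.5 and 82.7 against 91.4 and 94.8 (0.20 ± 0.044, limma adjusted p = 0.00313). Both mimic libraries were above both controls in each gene. LAMP2 was at 15.0 and 15.4 FPKM against 13.3 and 13.2, lower in both mimic libraries (-0.18 ± 0.050, limma adjusted p = 0.00983), and CLN3 fell by 0.19 on the log2 scale, while PSAP (0.049), LAMP1 (0.012) and GM2A (-0.025) did not pass. LAMP2 did not pass without scrambled miRNA replicate 2 (-0.17, adjusted p = 0.0750), under median-ratio scaling (-0.12, adjusted p = 0.0629) or under quantile normalization (-0.11, adjusted p = 0.0968, limma, range 0.00675 to 0.0968). CLN3 failed without mimic replicate 2 (-0.13, adjusted p = 0.112), without scrambled miRNA replicate 1 (-0.16, adjusted p = 0.106), under both scalings and with no filter on low values (limma, range 0.00798 to 0.112). PSAP passed upwards under median-ratio scaling (0.12, adjusted p = 0.0471) and quantile normalization (0.20, adjusted p = 0.00315, limma, range 0.00315 to 0.916), and LAMP1 under the latter (0.12, adjusted p = 0.0488, range 0.0488 to 0.896).

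The autophagy genes had no common direction with the mimic. GABARAPL1 was at 8.45 and 8.48 FPKM with the scrambled miRNA and at 3.94 and 3.64 with the mimic, a fall of 55.2% without overlap (-0.98 ± 0.065, limma adjusted p = 1.61e-06). The related GABARAP was at 338 and 317 against 326 and 326 FPKM, with the mimic libraries between the controls (-0.0064 ± 0.047, limma adjusted p = 0.914). MAP1LC3B (0.17) and GABARAPL2 (0.16) rose by little, and MAP1LC3A (0.086) and SQSTM1 (-0.035) did not pass. WIPI1 fell from 8.70 and 8.83 to 6.09 and 5.83 FPKM, without overlap (-0.49 ± 0.060, limma adjusted p = 7.73e-05). ULK1 rose from 11.6 and 10.6 to 16.0 and 15.4 FPKM, again without overlap (0.47 ± 0.059, limma adjusted p = 9.44e-05). BECN1 rose (0.20) and ATG5 fell (-0.19), while ATG7 (-0.051) and UVRAG (-0.10) did not pass. Of the transcription factors, TFE3 rose (0.14 ± 0.055, limma adjusted p = 0.0447), and TFEB was at 4.76 and 4.64 FPKM against 4.37 and 4.21 and did not pass (-0.11 ± 0.067, limma adjusted p = 0.189).

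Several of the smaller calls in the autophagy genes with the mimic turned on 1 library. MAP1LC3B failed without scrambled miRNA replicate 1 (0.15, adjusted p = 0.0628, limma, range 0.000612 to 0.0628) and GABARAPL2 without scrambled miRNA replicate 2 (0.13, adjusted p = 0.0925, limma, range 0.000127 to 0.0925). MAP1LC3A passed upwards without mimic replicate 2 (0.18, adjusted p = 0.0133, limma, range 0.0133 to 0.907) and UVRAG downwards without mimic replicate 1 (-0.23, adjusted p = 0.0378, limma, range 0.0378 to 0.813). TFE3 and ATG5 were the least stable. TFE3 failed without mimic replicate 1 (0.11, adjusted p = 0.189), scrambled miRNA replicate 1 (0.16, adjusted p = 0.1002) or scrambled miRNA replicate 2 (0.12, adjusted p = 0.198, limma, range 0.00852 to 0.198). ATG5 failed without the same libraries in turn (-0.11, adjusted p = 0.160, then -0.18, adjusted p = 0.0826, then -0.19, adjusted p = 0.0759, limma, range 0.0063 to 0.16). It also failed under median-ratio scaling and quantile normalization.

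**Figure D2:**
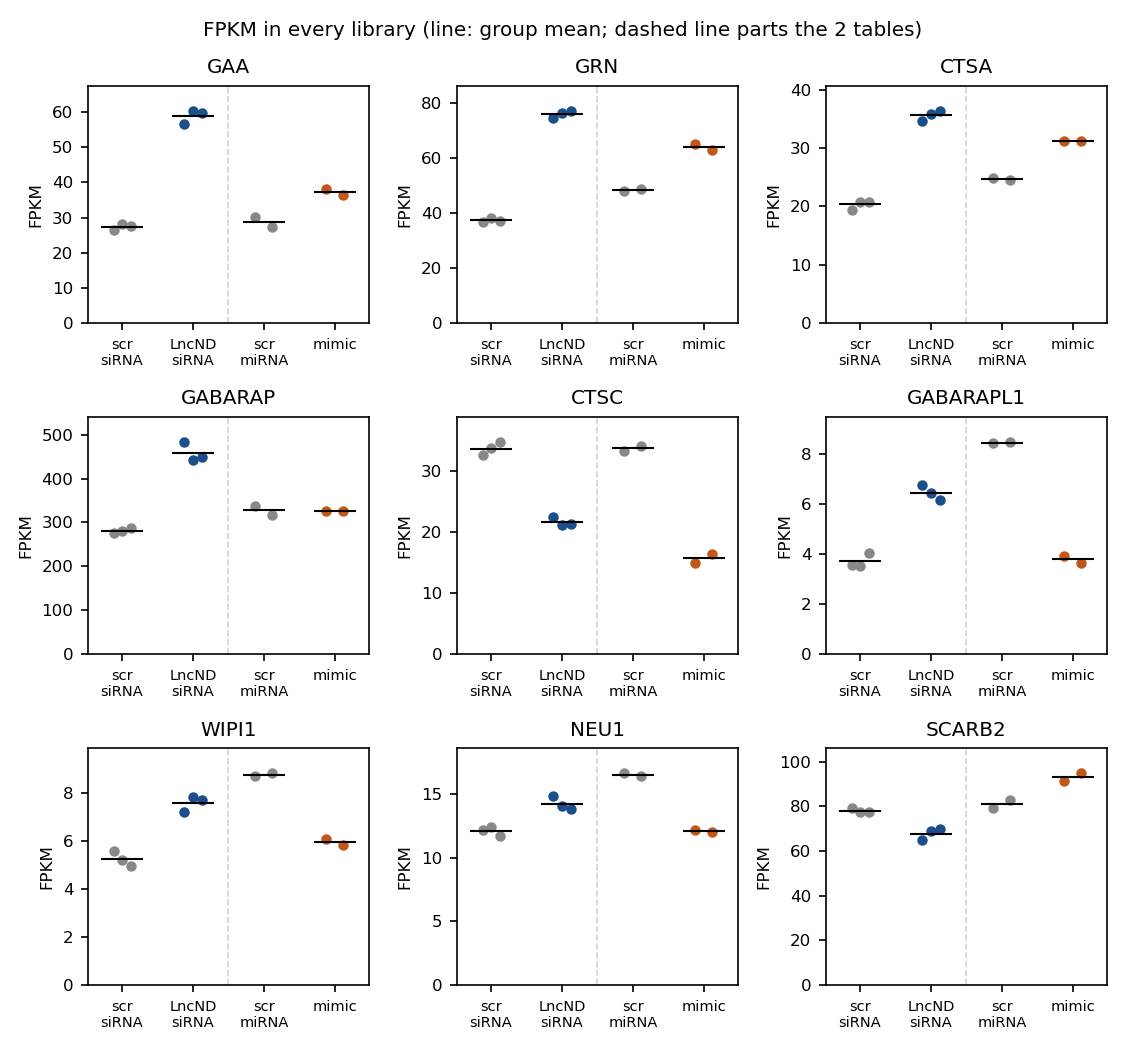
FPKM (vertical axis, from 0) of 9 genes in every library: scrambled siRNA, LncND siRNA, scrambled miRNA and the mimic. Points are libraries, lines are group means, and the dashed line parts the tables, which were scaled separately. For GABARAPL1 the LncND siRNA libraries (6.19 to 6.76 FPKM) stand above their controls and the mimic libraries (3.64 and 3.94) below theirs.

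Set side by side, 12 genes rose with both agents, among them GAA, GRN, CTSA, MAN2B1 and MCOLN1, and 5 fell with both (CTSC, GLA, PPT1, TPP1 and CLN3). These are 30% and 12.5% of the 40 genes. Over the 12327 genes tested in both tables, 12.6% rose with both and 16.4% fell with both. GABARAPL1, WIPI1, NEU1 and LAMP2 rose with LncND siRNA and fell with the mimic, and SCARB2 did the reverse. These opposite patterns are 10% and 2.5% of the 40, against 10.6% and 4.67% of all genes. A further 13 (32.5%, against 13.1% of all genes) rose with LncND siRNA and did not pass with the mimic, among them GABARAP, SQSTM1, TFEB and HEXA. Across the 40 genes the log2 changes correlated at Pearson's r = 0.501 and Spearman's rho = 0.469. That is a description over genes, which are not independent replicates, and the comparisons share the cell line but no library. The correlation over all genes was not computed, so these values do not mark the 40 genes out.

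**Figure D3:**
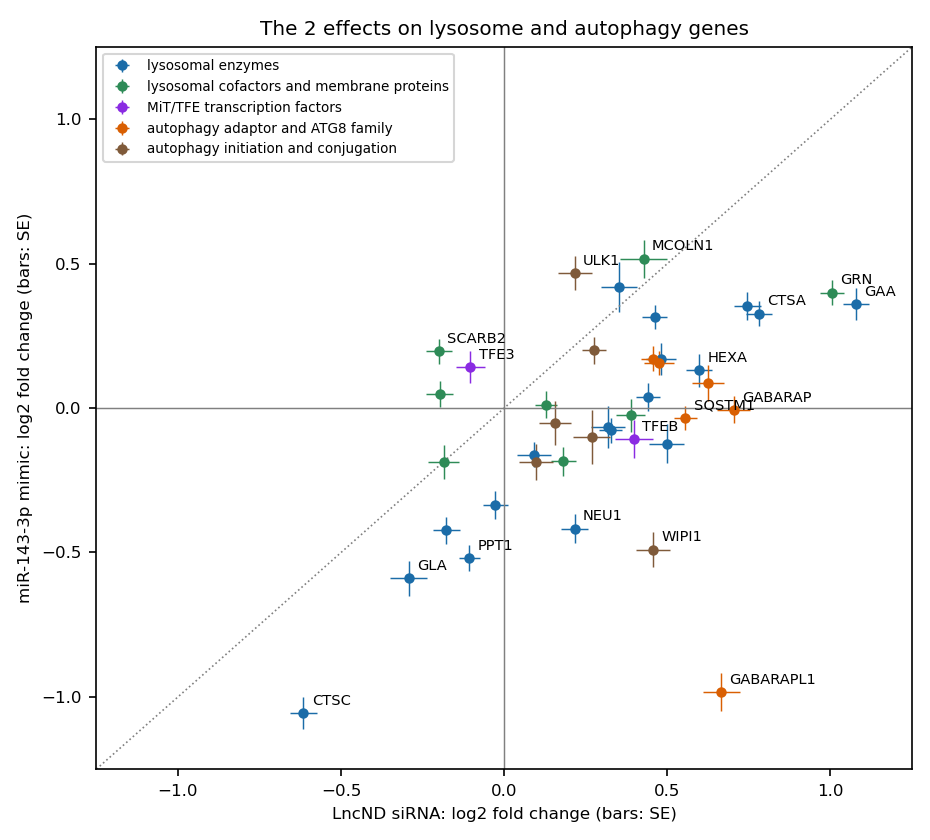
Log2 fold change with LncND siRNA (horizontal axis) against that with the mimic (vertical axis) for the 40 genes, coloured by role, with SE bars. The dotted line marks equal changes. Most genes lie below it, CTSC is lowest in both (-0.62 and -1.06), and GABARAPL1 is farthest from it (0.66 and -0.98).

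The difference of the effects (LncND siRNA change minus mimic change) was tested in 1 limma fit over all 10 libraries. It was positive in 31 genes, negative in 4 and not called in 5 of the 40. Without LncND siRNA replicate 1 it was positive in 30 and negative in 4. Of all 12327 genes 60.2% were called, 38.1% positive and 22.0% negative. The median difference was 0.37 for the 40 genes and 0.08 for all genes. Over all genes the share of positive calls moved from 63.4% to 51.3% under median-ratio scaling and 45.3% under quantile normalization, while the 40 genes gave 28 and 25 positive and 4 negative. By role, 17 of 18 enzymes were positive, CTSK being the exception (-0.066), as were all 6 genes of the adaptor and ATG8 group. Of these enzymes CTSD (0.056, adjusted p = 0.403) and IDS (0.16, adjusted p = 0.0875) did not pass under median-ratio scaling. Under quantile normalization CTSD (0.024, adjusted p = 0.737), IDS (0.11, adjusted p = 0.296), GLA (0.20, adjusted p = 0.0549) and TPP1 (0.15, adjusted p = 0.0509) did not pass, with limma ranges over all alternatives of 0.00027 to 0.296 for IDS and 0.000492 to 0.0509 for TPP1. The largest difference was that of GABARAPL1 (1.65 ± 0.086, limma adjusted p = 5.57e-09), ahead of WIPI1 (0.95 ± 0.077, limma adjusted p = 3.09e-07) and GAA (0.72 ± 0.069, limma adjusted p = 1.42e-06). The 4 negative differences were those of SCARB2 (-0.40 ± 0.059, limma adjusted p = 7.32e-05), ULK1 (-0.25), PSAP (-0.25) and TFE3 (-0.25). For genes that fell with both agents the positive sign means a deeper fall with the mimic, as for CTSC (0.44 ± 0.068). CLN3 did not differ beyond its error (0.00046 ± 0.077), and BECN1 (0.074), LAMP1 (0.12) and MCOLN1 (-0.09) were not called either.

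Leaving out 1 library ended some calls of the difference, mainly small ones. CTSD (adjusted p = 0.0369) lost its call without scrambled siRNA replicate 1 (0.13, adjusted p = 0.0795) or 3 (0.13, adjusted p = 0.0806), LncND siRNA replicate 2 (0.15, adjusted p = 0.0618) and each of the 4 miRNA libraries (0.13 to 0.17), with a limma range of 0.0183 to 0.737. ATG7 (0.21) lost it without each of 7 libraries (0.16 to 0.23), under median-ratio scaling (0.14, adjusted p = 0.161) and under quantile normalization, where the difference was close to 0 (0.021, adjusted p = 0.835, limma range 0.0154 to 0.835). ULK1 failed without mimic replicate 1 (-0.23, adjusted p = 0.0651) or scrambled miRNA replicate 2 (-0.19, adjusted p = 0.0987, range 0.00404 to 0.0987). GLA (0.24, adjusted p = 0.0564, range 0.00351 to 0.0564) and ATG5 (0.21, adjusted p = 0.0575, range 0.00455 to 0.0575) failed without mimic replicate 1, and LAMP1 passed without it (0.16, adjusted p = 0.0403, range 0.0403 to 0.714). UVRAG failed without mimic replicate 2 (0.23, adjusted p = 0.0641) and under quantile normalization (0.21, adjusted p = 0.129, range 0.00114 to 0.129).

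The scrambled controls themselves stood at different levels for some genes. GABARAPL1 was at 3.71 FPKM with the scrambled siRNA and at 8.47 with the scrambled miRNA, and the mimic group (3.79) was near the former. WIPI1 was at 5.26 and 8.77 FPKM in these controls, and SQSTM1 at 37.0 and 58.6. GAA (27.3 and 28.8) and CTSC (33.8 and 33.8) were alike in their values. The tables were scaled separately, so these levels are given side by side with no test. Among the 40 genes the highest mean FPKM in each group was that of GABARAP, and the lowest was TFEB in the scrambled siRNA group and ATG7 in the other groups.

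Promoters were searched for the E-box CACGTG and for TCACGTGA, the longer form at the core of the CLEAR element that TFEB and TFE3 bind, which overlaps the E-box and reads the same on both strands. RefSeq promoters (GRCh38.p14, 250 bases before to 50 after the annotated start) were at hand for 33 of the 41 genes, and not for CTSB, CTSK, HEXA, NAGLU, LAMP2, PSAP, MAP1LC3A and UVRAG. CACGTG stood in 8 of the 33 (24.2%), against 7.43% of 27305 promoters and 10.2% of the 9353 promoters of tested genes. TCACGTGA stood in 5 (15.2%), against 1.04% and 2.05%. In the further pathway lists given below, CACGTG stood in 12.5% (other autophagy genes) to 30.8% (V-ATPase subunits) of promoters. TCACGTGA stood in 3.12% to 15.4% of them, so neither share is particular to the genes described here. All 8 genes with CACGTG among the 33 encode enzymes or membrane proteins (CTSA, CTSD, CTSF, GAA, NEU1, LAMP1, CLN3 and MCOLN1). The windows below are shown because genes with large rises (GAA and CTSA), smaller rises (MCOLN1 and LAMP1) and a fall (CLN3) with LncND siRNA carry the same letters, which are in capitals. Each is read 5′ to 3′ on the gene's strand.
GAA, chr17:80101493-80101522, + strand: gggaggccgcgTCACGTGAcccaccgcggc
GAA, chr17:80101538-80101567, + strand: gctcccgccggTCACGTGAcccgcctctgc
CTSA, chr20:45891298-45891327, + strand: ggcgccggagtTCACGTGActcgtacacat
MCOLN1, chr19:7522571-7522600, + strand: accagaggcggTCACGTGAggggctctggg
LAMP1, chr13:113297199-113297228, + strand: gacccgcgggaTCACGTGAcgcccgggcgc
CLN3, chr16:28492058-28492087, - strand: cgcgggtgctgTCACGTGAtccgacaaacg

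With the annotated start counted as 0, the first base of TCACGTGA in these windows lies at -77 and -32 in GAA, -26 in CTSA, -42 in MCOLN1, -29 in LAMP1 and -2 in CLN3. MCOLN1 and LAMP1 each hold a further match, at -15 and at -2. Of the 8 tested genes with CACGTG, 7 rose and 1 fell with LncND siRNA (median log2 change 0.44), and 4 rose and 2 fell with the mimic (median 0.16). Of the 24 tested genes whose promoter lacks it, 15 rose and 5 fell with LncND siRNA (median 0.33). With the mimic 9 of these 24 rose and 9 fell (median -0.030). Of all genes tested 36.6% rose and 30.3% fell with LncND siRNA, and 24.6% rose and 38.6% fell with the mimic. Calls were not counted by promoter match over all genes. GRN, MAN2B1 and the ATG8 genes at hand (GABARAP, GABARAPL1, GABARAPL2 and MAP1LC3B) rose with LncND siRNA with no CACGTG in this window. A match is a description of letters, not of binding.

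MicroRNAs lower their targets mainly by pairing of the seed with the 3′ UTR. The mature miR-143-3p of RefSeq (GRCh38.p14) is shown with its seed (bases 2 to 8) in capitals. The 3′ UTR stretches (GENCODE v29, GRCh38) are those of the 3 listed genes with a match to the whole seed that changed with the mimic, and their capitals mark the match.
miR-143-3p, chr5:149428978-149428998, + strand: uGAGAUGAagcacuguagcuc
GABARAPL1, chr12:10222986-10223011, + strand: gacatttcaatTCATCTCtgctaatg
PPT1, chr1:40072228-40072253, - strand: tccttttaaagTCATCTCtataggaa
CTSD, chr11:1753170-1753195, - strand: tggggctccctTCATCTCcagggagt

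A match to the seed (TCATCTC, or CATCTCA with its closing A) stood in the 3′ UTR of 8 of the 40 tested genes (20.0%), against 21.9% of 11137 genes tested with the mimic. None had both forms joined into the longest match. Of the 8, GABARAPL1, PPT1, TPP1 and LAMP2 fell with the mimic, CTSD rose, and HEXA, GM2A and UVRAG did not pass (median log2 change -0.14). Of the 32 without a match 13 rose and 8 fell (median 0.025). Over all genes, 471 of 2437 with a match rose and 1162 fell (median -0.13). Without a match 2296 of 8700 rose and 3211 fell (median -0.048). The UTRs with a match were longer, at a median of 2192 bases against 606 in these genes and 2921 against 842.5 (median) in all genes. CTSC, GLA, WIPI1, NEU1, GUSB, IDS, CLN3 and ATG5 fell with the mimic with no match in the UTR searched, and that of GLA has 6 bases. The share of the seed in these changes was not tested.

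Further genes of the same pathways, taken from lists chosen with earlier results of these data known, are given by their counts. Of 26 genes listed as other lysosomal hydrolases, which include the cholesterol carrier NPC2, 18 rose and 7 fell with LncND siRNA (median 0.45). On the log2(FPKM + 1) scale the largest rises were those of PLD3 (75.3 to 179.8 FPKM, 1.24), the acid lipase LIPA (1.23), the protease CTSO (1.09) and the iduronidase IDUA (0.88). By mean FPKM CTSO rose most (2.77-fold). With the mimic 7 rose and 13 fell (median -0.19). On the same scale the largest falls were those of the galactosylceramidase GALC (8.65 to 2.91 FPKM, -1.30), NPC2 (47.6 to 19.1 FPKM, -1.28), the protease CTSL2 (-1.06) and the sulfatase ARSB (-0.87). By mean FPKM CTSL2 fell most (-70.7%). Of 18 subunits of the V-ATPase, the proton pump that acidifies the lysosome, 15 rose and 1 fell with LncND siRNA (median 0.39), with ATP6V0C (0.92), ATP6V0A1 (0.86), ATP6AP2 (0.81) and ATP6V0B (0.77) changed most. With the mimic 9 rose and 4 fell, among them ATP6V1A (-0.83) and ATP6V0D1 (0.47). Of 19 other membrane and delivery proteins 8 rose and 4 fell with LncND siRNA, led by OSTM1 (1.11), and 3 rose and 8 fell with the mimic, led by the mannose 6-phosphate receptor M6PR (-0.63). The share of rises in that list with LncND siRNA (42.1%) and of falls with the mimic (42.1%) was near that of all genes (36.6% and 38.6%). Of the hydrolases 69.2% rose with LncND siRNA and 50% fell with the mimic, and of the V-ATPase subunits 83.3% rose with LncND siRNA and 50% with the mimic, against 24.6% of all genes for rises with the mimic.

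Of 36 other autophagy genes 19 rose (52.8%) and 8 fell (22.2%) with LncND siRNA, against 36.6% and 30.3% of all genes. Among them were the adaptor OPTN (0.82) and the membrane protein ATG9A (-0.62). With the mimic 17 rose (47.2%) and 8 fell (22.2%), against 24.6% and 38.6% of all genes, among them ATG12 (0.68) and ATG10 (-0.83). DRAM1, a lysosomal protein induced by p53, rose with LncND siRNA (0.77) and fell with the mimic (-0.83). In the mTORC1 list, which holds the kinase's subunits and its lysosomal control, 13 of 25 rose (52%) and 1 fell (4%) with LncND siRNA. With the mimic 11 of 24 rose (45.8%) and 6 fell (25%), to be read beside the same shares of all genes. The largest change in this list with each agent was that of SESN3, a sestrin, a kind of protein that restrains mTORC1. It went from 4.91 to 14.4 FPKM with LncND siRNA (1.37) and from 4.24 to 18.5 with the mimic (1.90), and the related SESN1 rose with LncND siRNA (1.24). No count of these lists was tested against other genes.

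**Figure D4:**
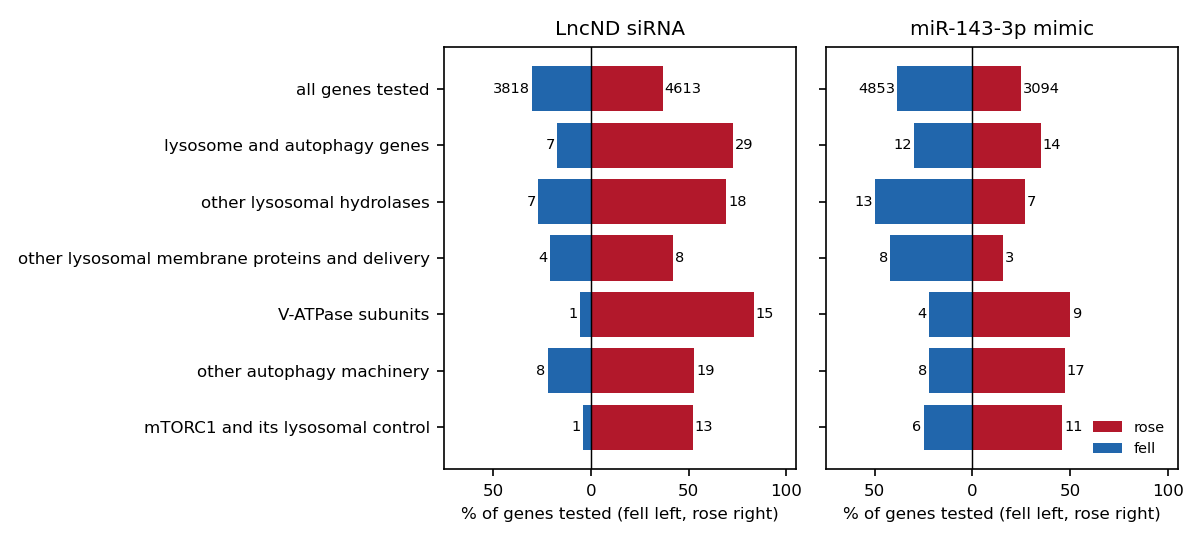
Share of tested genes that rose (right) and fell (left) in each list, in % of genes tested, with LncND siRNA and with the mimic; the numbers are genes. With LncND siRNA 72.5% of the lysosome and autophagy genes rose, against 36.6% of all genes tested, and with the mimic 35.0%, against 24.6%.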

How the data were processed

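Poly(A) RNA of SH-SY5Y cells was sequenced with stranded TruSeq libraries from RNA isolated with the MirVana kit, per the labels' protocols. The authors deposited FPKM in 1 table per kind of small RNA, a normalized score per gene and library, per the file headers. Reads were handled with TopHat 1.0.0 and Cufflinks on hg19, per the submitters' processing notes. Annotation, strand setting and filter: not given in the sources used here. Status words stood in place of 1.1% of values. The 1304 rows not on assembled chromosomes were dropped, and a name on several rows kept the row with the highest mean, as for NEU1. The lowest value, 0.001, stood in the place of 0.

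Genes averaging 1 FPKM or more in a table were put on the log2(FPKM + 1) scale and tested with limma 3.58.1 in R 4.3.3 (lmFit, eBayes with a trend), each table alone, 2-sided, with Benjamini-Hochberg adjustment over all genes tested and a threshold of 0.05. The scale understates changes of low genes. The difference of the effects was fitted over all 10 libraries, in which the offset between tables cancels. Scripts were tested on simulated data. Depth was estimated from the steps between low FPKM of 351 single-exon olfactory receptor genes and used in no test. A 2-kb transcript at 1 FPKM would hold 27.7 to 88.7 fragments.

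For seed matches, 1 principal-isoform transcript per gene, that with the longest 3′ UTR, was searched. The genes and lists were chosen with earlier results of these data known. Every listed gene may be named; of the other pathway lists, up to 4 with the largest changes past the threshold. Alternatives were pseudocounts of 0.1 and 0.5, no filter, a mean of at least 5 FPKM, median-ratio scaling, quantile normalization, no trend, a replicate block, and each library left out.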

Additional observations from a re-analysis of the deposited data

Results flagged for a closer look

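For 5 of the genes the effects of LncND siRNA and of the mimic went in opposite directions, and the difference between them passed the limma test over all 10 libraries. Each effect had already passed by itself in the same libraries, so the pass of the difference adds no independent support. The difference (LncND siRNA change minus mimic change, log2) was 1.65 for GABARAPL1, 0.95 for WIPI1, 0.63 for NEU1 and 0.36 for LAMP2, all higher with LncND siRNA and lower with the mimic. It was -0.40 for SCARB2, which fell with LncND siRNA and rose with the mimic. All libraries of a treated group were on the same side of all its controls in each of the 5 genes. That adds no support either, since the genes were chosen by their calls in these libraries. Of all genes tested, 70.9% showed no overlap with LncND siRNA and 81.9% with the mimic. The agents differ in dose and in their scrambled controls. The scrambled siRNA and scrambled miRNA means were 3.71 and 8.47 FPKM for GABARAPL1 and 5.26 and 8.77 for WIPI1. They were 12.1 and 16.5 for NEU1, 9.66 and 15.2 for LAMP2, and 78.1 and 81.1 for SCARB2. The part of dose and controls in the differences was not tested. These patterns were no more frequent here than over all genes: 4 of 40 (10%) rose with LncND siRNA and fell with the mimic, against 10.6% of the 12327 genes tested in both tables, and 1 of 40 (2.5%) did the reverse, against 4.67%. The fall of LAMP2 with the mimic was the least stable of these calls, as given above with its range.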

How the results depend on the processing

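Of the genes called, 33 of 36 with LncND siRNA, 18 of 26 with the mimic and 27 of 35 in the difference kept their direction and their call under every alternative run for them. The number of genes called stayed within 1.5 times the main count throughout. Turns of sign in genes called in neither fit were not counted. Among single genes 1 direction turned together with a call, that of GABARAP with the mimic (-0.0064, not called). Under quantile normalization it was 0.12, adjusted p = 0.0140 in limma (range 0.014 to 0.931). The cause was not tested. In a paired fit with the replicate number as a block, 35 genes were called with LncND siRNA, 27 with the mimic and 33 in the difference. Deviations of same-numbered siRNA libraries correlated at 0.068, 0.207 and -0.053, and of miRNA libraries at 0.135. With 2 miRNA libraries a group the deviations mirror each other, so the differently numbered pairs give -0.135 by construction. The miRNA value alone therefore cannot tell whether samples were paired. The numbers were not taken to pair the samples. Under the replicate block PPT1 (-0.11, adjusted p = 0.0579) lost its call with LncND siRNA, and CTSD (0.15, adjusted p = 0.0662) and ATG7 (0.21, adjusted p = 0.0535) in the difference, and HEXA gained one with the mimic (0.13, adjusted p = 0.0497). With 2 libraries a group the mimic calls are the least secure, and below a mean of 1 FPKM, as for CTSZ, no change could be tested.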
